A study of Mus musculus with 16 samples.

Results

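The genes of the eukaryotic translation initiation factors were followed through an RNA-immunoprecipitation (RIP-seq) experiment on CPEB4 in mouse macrophages. A gene was taken where its symbol begins with Eif and a digit from 1 to 6, other than the kinases named Eif2ak and the symbols beginning with Eif2c. This gave 51 genes of the 14925 with a symbol, spread over 117 of 30622 annotated 3′-UTR regions, and the region with the most reads stood for each gene. The cells were bone marrow-derived macrophages (BMDMs) from femurs of adult mice of the strain labelled C57BL/6J 129, grown with L-cell medium as the source of M-CSF. Culture 76 was wild-type (WT) and culture 73 carried a full Cpeb4 knockout (KO, Cpeb4-/-). Each was left untreated or received 10 ng/ml lipopolysaccharide (LPS), a component of the bacterial cell wall, for 9 h. Sequencing covered lysate RNA depleted of ribosomal RNA (Input) and the RNA pulled down by an antibody against CPEB4 (RIP). The 16 samples are 8 libraries, each run on 2 lanes that the deposited counts sum. Every combination of genotype, treatment and assay thus had 1 library, and differences between libraries have no replicate check.

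Initiation begins when eIF2 brings the initiator tRNA to the small ribosomal subunit, where eIF1, eIF1A, eIF3 and eIF5 assemble. The eIF4F complex (the cap-binding eIF4E, the scaffold eIF4G and the helicase eIF4A) loads that subunit on the mRNA, and eIF5B joins the large subunit after the start codon has been found. The 4E-BP proteins block eIF4E until mTOR phosphorylates them, and eIF2 kinases slow delivery of the tRNA. CPEB proteins act on the same step from the other end of the mRNA: they bind cytoplasmic polyadenylation elements (CPEs) in the 3′-UTR and change the poly(A) tail, either repressing or activating translation.

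The authors scored each 3′-UTR for an arrangement of CPEs near the polyadenylation hexamer. Of the 51 genes, 42 had no prediction, 6 were predicted for repression only (Eif1ax, Eif2b3, Eif2s1, Eif4e, Eif5a2 and Eif5b) and 3 had a predicted activation, with or without repression (Eif1a, Eif3j2 and Eif4e3). Over all genes the shares were 68.2%, 16.2% and 15.6%, against 82.4%, 11.8% and 5.88% of the initiation factors. The consensus CPE, TTTTAT or TTTTAAT on the strand of the mRNA, stood at least once in 27 of the 51 regions (52.9%, against 57.4% of all regions). The members' regions had a median length of 935 bases (1014 over all genes) and a median GC content of 44.0% (45.4%). A hexamer (AATAAA or ATTAAA) began within the last 36 bases of 31 regions (60.8%, against 72% of all). The following windows of 30 bases show, for 6 genes with a prediction and for 2 genes without one that had many reads, the consensus CPE nearest to the last hexamer (for Eif4ebp2, which had none, nearest to the end of the region), with the CPE in capitals.
Eif1ax: gtgacgtgtcgtTTTTATgctttaacgagt
Eif2s1: ttcaaggggtaTTTTAATgtgctgctgctt
Eif4e: tgtggctatctTTTTAATaaagttaaggca
Eif4e3: attttgagaaaaTTTTATttttgaacttta
Eif5a2: caagggagattcTTTTATgtatatgacatt
Eif5b: ccttttcatgtaTTTTATaaccagatccaa
Eif4g2: acttgggaaatTTTTAATttcatagtctta
Eif4ebp2: agaggagagaccTTTTATttttaagatgac
All 8 windows lie in annotated 3′-UTRs and are written 5′ to 3′ as in the genome build GRCm38.p6, the assembly of mm10. They are at chrX:159389496-159389525 (plus strand), chr12:78885618-78885647 (plus), chr3:138556644-138556673 (plus), chr6:99625215-99625244 (minus), chr3:28798244-28798273 (plus), chr1:38053615-38053644 (plus), chr7:111071816-111071845 (minus) and chr10:61432584-61432613 (minus). The region of Eif1ax held 10 such CPEs, those of Eif2s1 and Eif5a2 6 each, that of Eif5b 4, that of Eif4e3 3, those of Eif4e and Eif4g2 2 each, and that of Eif4ebp2 1. The CPE shown ended 80 bases before the last hexamer in Eif4e3, 83 in Eif1ax, 226 in Eif4e, 558 in Eif5a2, 1236 in Eif4g2 and 1926 in Eif5b. In Eif2s1 it lay after the last hexamer, which began 1505 bases from the end of the region. Which CPEs a prediction rests on was not examined.

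The libraries held from 467696 (KO RIP, untreated) to 2492300 (WT RIP, LPS) reads over 3′-UTRs with a symbol. Levels are given as RPM, the reads of a gene for each 1000000 of these. The initiation factors took from 0.279% to 0.383% of them. Cpeb4 had 130.2 and 136 RPM in the untreated and LPS-treated WT Inputs and 52.0 and 52.6 in the KO Inputs, so that reads over its 3′-UTR remained in the KO. In the RIPs it had 836 and 770.4 (WT) against 257 and 367 (KO). All 7 macrophage markers examined had reads in all 8 libraries, with a summed level of 1572 to 4447 RPM. Markers of other cell types (1 of 6 listed neutrophil genes was covered, 3 of 4 for T and B cells each, and 3 fibroblast, 2 erythroid and 3 dendritic genes) summed to at most 8.55 RPM for a type in any library. The 2 mast cell markers were not analysed here. How WT and KO RIPs compare depends on the scaling. On library totals recovered from the authors' RPKM in place of 3′-UTR sums, the log2 ratio was higher for every gene, by 0.84 in untreated and 1.14 in LPS-treated cells, and with TMM factors by 0.23 and 0.34. Shares and medians of the members are therefore set beside those of all genes, which move with them.

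All 8 counts were at least 10 for 23 of the 51 genes. Total reads per gene over the 8 libraries ran from 1 to 5960 with a median of 262, and 19 genes had fewer than 100. Of the 51, 6 (Eif2b3, Eif2b4, Eif3g, Eif3k, Eif3m and Eif4e1b) never had more than 3 reads in a library, and no ratio is given for them. Regions under 200 bases were found for 12 genes, 9 of them eIF3 subunits, and the region of Eif3b had 13 bases. Per length, among the 39 genes with a region of at least 200 bases, Eif5a was the most abundant in the Inputs (653 to 886 RPM per kb over the 4 Inputs), followed by Eif4a1 (496 to 569) and Eif4h (429 to 482), whose ranges did not overlap one another. Eif4g1 (201 to 281) and Eif6 (117 to 275) came next, with overlapping ranges. For 11 genes a near-identical copy of most of the region (at least 95% identity over at least 50% of it and at least 60 bases) stands elsewhere in the genome, and how the counting placed such reads is uncertain: Eif1, Eif2s3x, Eif3a, Eif3e, Eif3j1, Eif3j2, Eif3m, Eif4a1, Eif4b, Eif5 and Eif5a. The copies of Eif3j1 and Eif3j2 are each other. Regions under 60 bases could not be searched this way. Exons of other genes on the opposite strand cover 42.5% of the region of Eif5b (Rev1), 24.6% of that of Eif3j1 (Spg11) and all of that of Eif3m (Ccdc73), the region of Eif4ebp3 lies within an exon of another annotated gene on its own strand, and the sources used here do not state whether counting used strand.

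**Figure D1:**
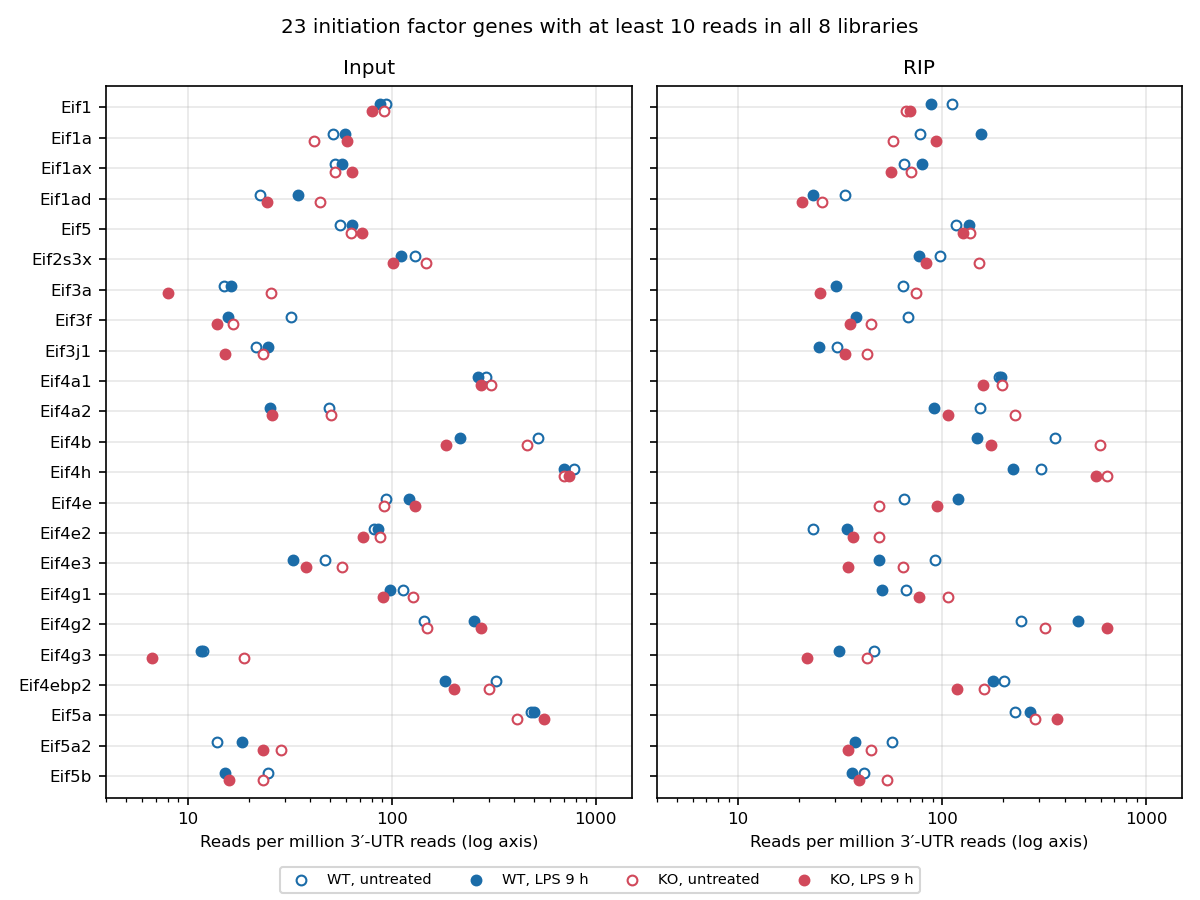
Level in RPM (x axis, log scale) of the 23 genes that reached 10 reads in all 8 libraries, in the Inputs (left) and RIPs (right). Each point is 1 library; blue is WT, red is KO, open is untreated and filled is LPS. WT and KO points lie close together in the Inputs for most genes, and the KO points of Eif4h lie to the right of the WT points in the RIPs.

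The first comparison asked how far the 3′-UTRs of initiation factors were recovered with the antibody relative to the lysate. Ratios are log2 ratios of RPM with 1 read added, each with its 95% counting interval in brackets. A gene with at least 10 reads in the compared libraries counted as called where the ratio passed 0.5 in size and its interval left 0 out. In the untreated WT, 14 of 42 members were called higher in the RIP (33.3%, against 27.3% of all genes) and 14 lower (27.3% of all genes). With LPS in the WT, 13 of 41 were higher (background 29.2%) and 13 lower (32.7%). In the KO, which lacks the antibody's target protein, the members higher in the RIP were 14 of 42 untreated (background 20.8%) and 13 of 41 with LPS (22.1%), with 7 lower in each (backgrounds 14.6% and 18%). These KO counts depend on the scaling: on library totals 5 and 4 members were higher (6.8% and 7.31% of all genes) and 13 and 16 lower (42.3% and 44.5%), while the WT had 14 and 18 higher (28.6% and 42.7% of all genes) and 11 and 6 lower (25.8% and 20.8%). Of the 14 genes called higher in the untreated WT, 9 were also called in the untreated KO, which also had 14. Over all genes, the shared higher calls were 46.3% of the WT and 65.9% of the KO calls. With LPS 10 genes were shared, of 13 in each genotype (over all genes, 49.5% of the WT and 73% of the KO calls). Among them were Eif2a, Eif3a, Eif3f, Eif4a2, Eif4g2, Eif4g3, Eif5 and Eif5b in both treatments. The WT calls of these 8 stood under all 4 scalings. In the KO, Eif2a and Eif4a2 kept theirs in both treatments, Eif3a only untreated and Eif4g2 only with LPS, and Eif3f, Eif4g3, Eif5 and Eif5b lost theirs on library totals. Of the WT genes called lower, Eif3b, Eif4b and Eif4e (untreated) and Eif1ad, Eif2b5, Eif2s3x, Eif3c, Eif4b, Eif4g1 and Eif5a (LPS) were not called on library totals. The members' median ratio was 0.19 for the untreated and -0.0012 for the LPS-treated WT, and 0.41 and 0.57 for the KO, against medians of all genes of 0.03, -0.03, 0.02 and 0.00.

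**Figure D2:**
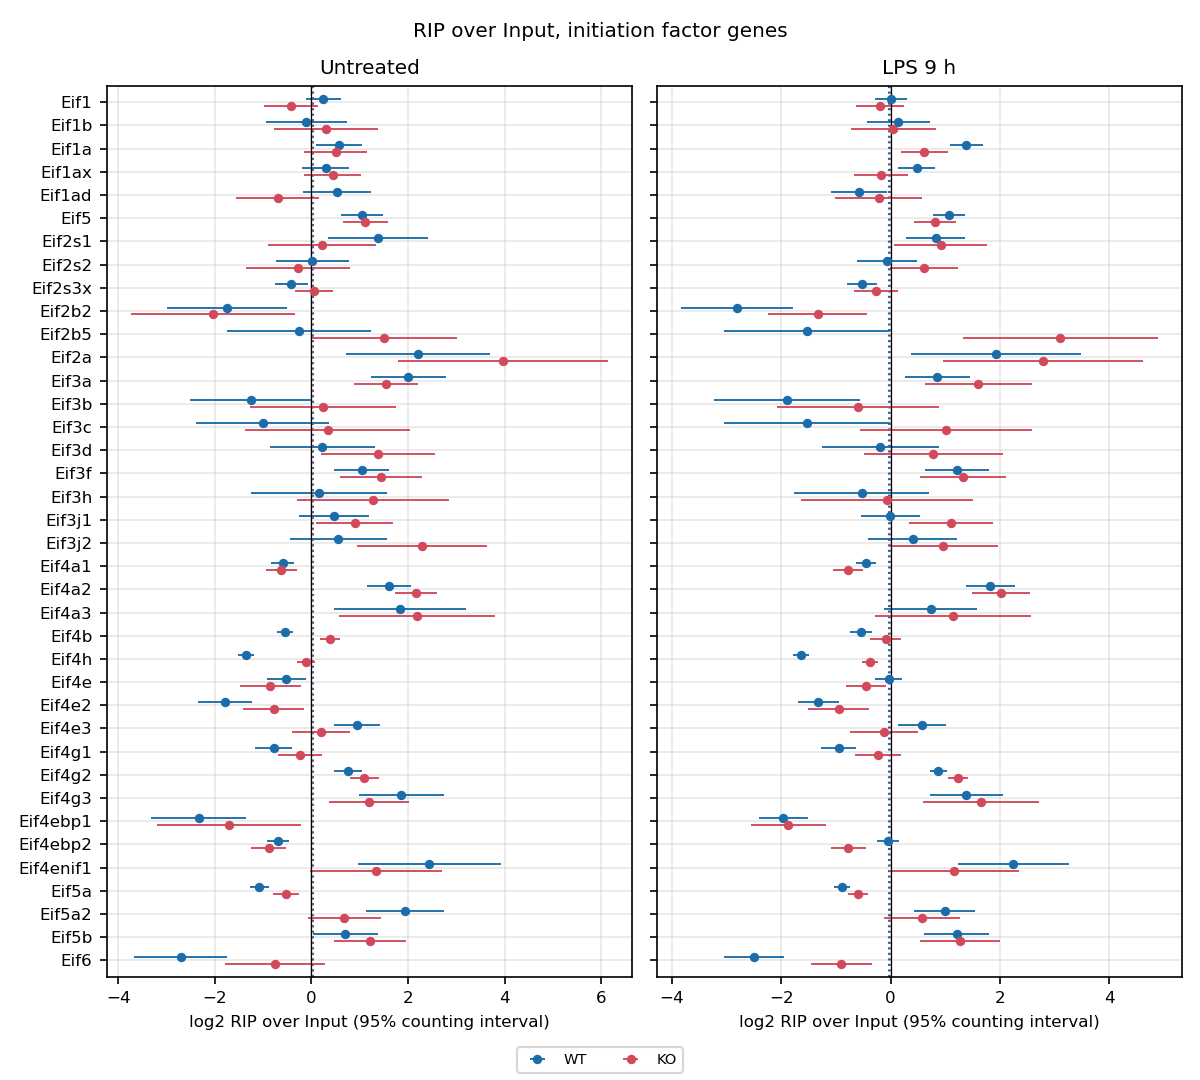
log2 ratio of RIP over Input (x axis) for the 38 members with at least 10 reads in all 4 pairs, ordered by role, in untreated (left) and LPS-treated (right) BMDMs. Points are single libraries with their 95% counting interval, blue for WT and red for KO, and dotted lines are the medians of all genes. Eif4a2 and Eif4g2 lie above 0 and Eif4ebp1 and Eif2b2 below it in both genotypes, while Eif4h and Eif6 lie lower in the WT than in the KO.

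The comparison of WT with KO RIPs, which the study used as its control for the antibody, gave counts that turned with the scaling. On the 3′-UTR sums and untreated, 1 of 41 was higher (2.44%, background 12.3%), which was Eif1, and 10 were lower (24.4%, background 18.1%). With LPS, 2 of 42 were higher (4.76%, background 16.4%), Eif1a and Eif4ebp2, and 8 were lower (19%, background 21.7%). The 3 higher calls stood under all 4 scalings tried, and of the lower calls those of Eif2d (untreated) and Eif2b5 (LPS) did. On library totals, 17 of 41 members were higher in untreated cells (42.7% of all genes) and 27 of 42 with LPS (60% of all genes), with 1 lower in each (1.9% and 2% of all genes). The WT over KO RIP ratios of single genes below are on the 3′-UTR sums unless stated. Those not called there can be called higher on library totals. With the 3′-UTR sums, the members' median was -0.37 (untreated) and -0.19 (LPS) against -0.10 and -0.04 over all genes. In both treatments 5 genes were lower on the 3′-UTR sums (over all genes, 59.1% of the untreated and 47.9% of the LPS lower calls were shared): Eif2b5, Eif3l, Eif4g1, Eif4h and Eif6. Of these, the call stood on library totals only for Eif2b5 with LPS, and with LPS Eif4g1 was called higher there (0.53). Subtracting the WT over KO ratio of the Inputs left 3 of 37 members higher in the untreated cells (Eif1, Eif1ad and Eif5a2, background 14.5%) and 7 lower (background 16.1%). With LPS, 3 of 38 were higher after this correction (Eif1a, Eif1ax and Eif4ebp2, background 14.1%) and 7 lower (background 21.4%). On library totals the corrected ratio was called higher for 12 and 21 members and lower for 1 in each treatment, and the 6 higher calls named here were among those kept under all 4 scalings. The median corrected ratio of all genes was 0.80 and 1.09 on library totals, against -0.03 and -0.10 on the 3′-UTR sums.

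**Figure D3:**
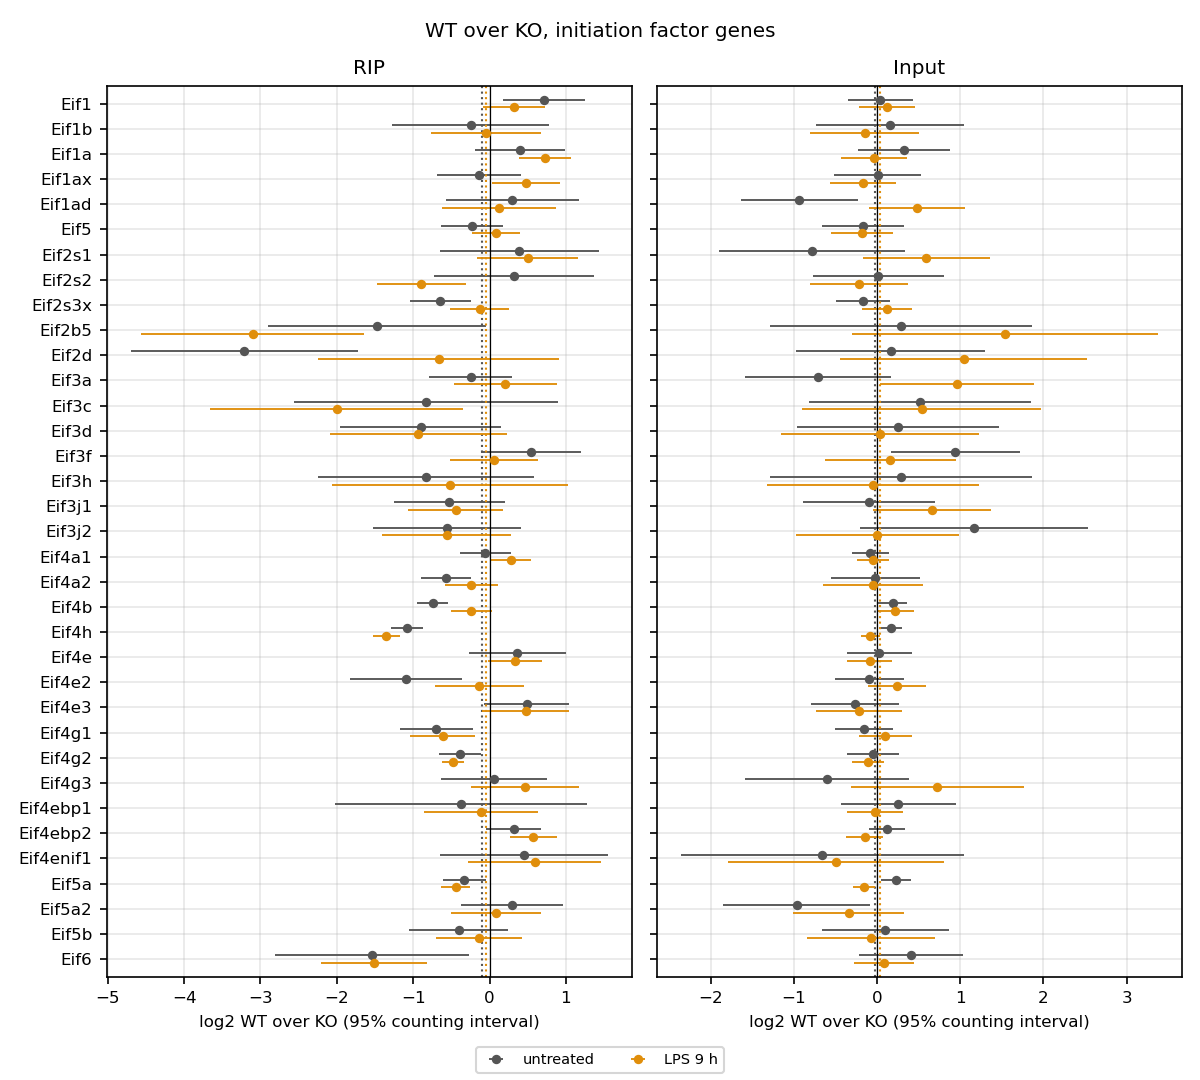
log2 ratio of WT over KO (x axis) for the 35 members with at least 10 reads in all 4 pairs, in the RIPs (left) and in the Inputs (right), with 95% counting intervals. Grey is untreated, orange is LPS, and dotted lines are the medians of all genes. In the RIPs Eif4h, Eif6 and Eif4g1 lie below 0 in both treatments; in the Inputs most intervals include 0.

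The Inputs of the 2 genotypes differed little in these genes, with called shares near or below those of all genes, which were also small. Untreated, Eif3f was called higher in the WT (0.94 [0.17 to 1.72]; 1 of 39, background 3.25%), and Eif1ad (-0.93 [-1.64 to -0.23]) and Eif5a2 (-0.96 [-1.85 to -0.08]) were called lower (background 4.83%). With LPS, Eif3a was the one member called higher (0.96 [0.03 to 1.89]; 1 of 40, background 5.19%), and none was called lower (background 4.09%). The Eif3a call was lost on library totals and with median-of-ratios factors. The median WT over KO ratio of the members was 0.03 untreated and -0.01 with LPS.

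LPS changed a smaller share of initiation factors than of all genes in the WT Input. There 4 of 41 members were called higher (9.76%, background 17.1%) and 4 lower (9.76%, background 23.3%). In the KO Input 4 of 39 were higher (10.3%, background 18.2%) and 9 lower (23.1%, background 26.8%). The members' medians, -0.09 (WT) and -0.18 (KO), stood beside -0.08 and -0.18 over all genes. Eif4ebp1, Eif4g2 and Eif6 were higher with LPS in both genotypes, which is 3 of 4 calls in each, and Eif4a2, Eif4b and Eif4ebp2 were lower in both, which is 3 of 4 calls in the WT and 3 of 9 in the KO. Over all genes, the shared higher calls were 77.1% of those in the WT and 71.7% of those in the KO. The shared lower calls were 73.7% and 63.5%. The KO Input call of Eif4ebp2, and those of Eif4e3 and Eif2s3x, were lost under each of the 3 other scalings, and the other calls named here stood under all 4. Across the 39 members with reads in all 4 Inputs, WT and KO changes had a Pearson correlation of 0.588 and a Spearman correlation of 0.561 (0.782 over 7867 genes). These are correlations across genes, which are not independent replicates. In the RIPs LPS gave 6 of 44 members higher in the WT (13.6%, background 16.7%) and 12 lower (27.3%, background 29.7%), and 4 of 40 higher in the KO (10%, background 15.5%) and 7 lower (17.5%, background 24.4%). The balance in the WT RIP turned with the scaling: 13 members were higher and 3 lower on library totals, and 11 higher and 5 lower with TMM factors. In the KO RIP both of these scalings gave 7 higher and 5 lower. The median LPS change of all genes moved too. In the WT RIP it went from -0.24 to 0.28 on library totals and 0.13 with TMM factors, and in the KO RIP from -0.20 to 0.02 and 0.07. Of the calls on the 3′-UTR sums, Eif1a, Eif4e and Eif4g2 were higher in both genotypes, under all 4 scalings. Lower in both were Eif3a and Eif4b, also under all 4, and Eif4a2, Eif4e3 and Eif4g3. The WT calls of Eif4a2 and Eif4g3 were lost under the 3 other scalings, and that of Eif4e3 on library totals. In the KO the calls of Eif4e3 and Eif4g3 were lost under the 3 other scalings.

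**Figure D4:**
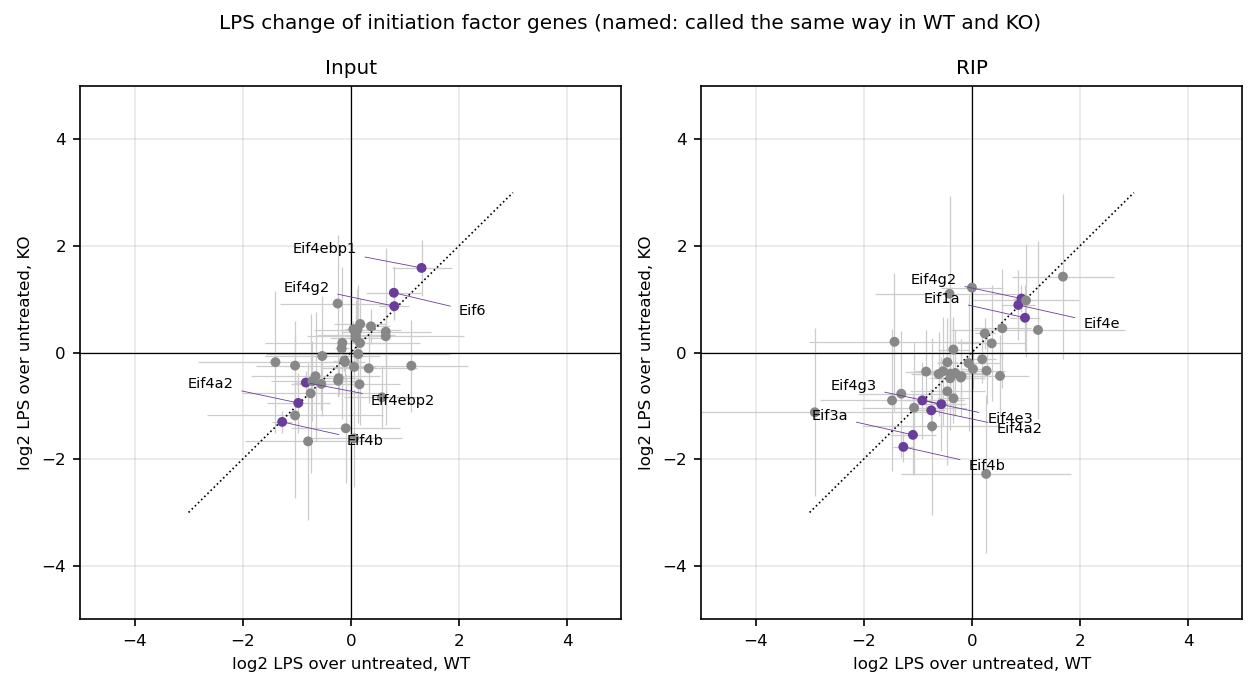
log2 change with LPS in the WT (x axis) and the KO (y axis), in the Inputs (39 genes, left) and the RIPs (40 genes, right), with 95% counting intervals in grey and the line of equal change dotted. Named purple points were called the same way in both genotypes: Eif4ebp1, Eif4g2 and Eif6 higher and Eif4a2, Eif4b and Eif4ebp2 lower in the Inputs, the KO call of Eif4ebp2 on the 3′-UTR sums only.

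The difference between the LPS changes of the 2 genotypes was itself computed from the 4 libraries concerned. It and the difference between RIP and Input changes were computed on the 3′-UTR sums only. In the Inputs it was called for 3 of 39 members, all higher in the WT (background 5.49%, and 3.41% lower): Eif3a (1.67 [0.40 to 2.95]), Eif1ad (1.42 [0.51 to 2.32]) and Eif2s1 (1.37 [0.02 to 2.72]). In the RIPs it was called for 4 of 40 (backgrounds 4.67% higher and 4.62% lower), with Eif2d, Eif4e2 and Eif4b higher in the WT and Eif2s2 lower. The LPS change of the RIP beyond that of the Input was called higher for Eif1a (0.81 [0.25 to 1.37]) and Eif4ebp2 (0.64 [0.34 to 0.94]) in the WT (2 of 40, background 2.29%), and lower for Eif1ad (-1.11 [-1.98 to -0.24]) and Eif3a (-1.15 [-2.13 to -0.17]; background 6.11%). In the KO it was called for 0 of 35 members (backgrounds 2.68% higher and 3.23% lower). The value of Eif1a there was 0.12 [-0.67 to 0.90] and that of Eif4ebp2 0.12 [-0.36 to 0.60], and whether WT and KO differ in it was not tested. On library totals the LPS ratio of every gene shifts by 0.52 in the WT RIP and 0.07 in the WT Input. In the KO it shifts by 0.22 (RIP) and 0.14 (Input). RIP changes beyond the Input thus rise more in the WT than in the KO. The intervals of the lower calls of Eif1ad and Eif3a would then include 0, as would that of Eif2s1 between the Inputs.

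Among the factors that select the start codon, Eif1a stood out in the WT RIP after LPS. Its region had 51.7 (untreated) and 59.0 (LPS) RPM in the WT Inputs, 41.5 and 60.6 in the KO Inputs, 78.0 and 155 in the WT RIPs, and 57.7 and 92.9 in the KO RIPs. The LPS-treated WT RIP was the highest of the 8 libraries. Eif1a was higher in the RIP than in the Input in the WT in both treatments (0.58 [0.10 to 1.05] untreated, 1.39 [1.08 to 1.69] with LPS) and in the LPS-treated KO (0.62 [0.19 to 1.05]), a call that did not stand on library totals. The WT over KO ratio of its RIPs was 0.39 [-0.20 to 0.98] untreated and 0.73 [0.38 to 1.07] with LPS, and after correction for the Inputs 0.07 [-0.73 to 0.88] and 0.77 [0.24 to 1.29]. Its relative Eif1ax, which encodes eIF1A from the X chromosome, had 52.7 (untreated) and 56.9 (LPS) RPM in the WT Inputs, 52.8 and 63.9 in the KO Inputs, 65.4 and 79.4 in the WT RIPs, and 70.6 and 56.2 in the KO RIPs. The lowest was the untreated WT Input and the highest the LPS-treated WT RIP. The WT over KO ratio of the Eif1ax RIPs was -0.14 [-0.69 to 0.42] untreated and 0.48 [0.03 to 0.92] with LPS, the latter below the fold needed for a call, and 0.65 [0.05 to 1.24] with LPS after correction.

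Eif1, which guards the accuracy of start codon choice, had 93.6 (untreated) and 87.5 (LPS) RPM in the WT Inputs, 91.3 and 80.5 in the KO Inputs, 112 and 88.3 in the WT RIPs, and 66.3 and 70.0 in the KO RIPs. The untreated WT RIP was the highest. Its RIP ratio of WT over KO was 0.71 [0.17 to 1.26] untreated and 0.32 [-0.09 to 0.72] with LPS. Eif5, whose product makes eIF2 hydrolyse its GTP, had 56.0 (untreated) and 63.8 (LPS) RPM in the WT Inputs, 63.3 and 71.9 in the KO Inputs, 118 and 135 in the WT RIPs, and 137 and 126 in the KO RIPs. All 4 RIPs of Eif5 lay above all 4 Inputs, and on library totals the KO ratios were not called. Its RIP over Input ratios were 1.05 [0.61 to 1.49] and 1.07 [0.77 to 1.37] in the WT and 1.12 [0.65 to 1.58] and 0.81 [0.43 to 1.19] in the KO, and its WT over KO RIP ratios were -0.23 [-0.64 to 0.17] and 0.09 [-0.22 to 0.40]. Eif1ad, whose product carries a domain like that of eIF1A, differed between the untreated Inputs (21 reads in WT, 59 in KO), and its LPS ratio was 0.58 [-0.12 to 1.27] in the WT Input, not called, and -0.84 [-1.43 to -0.25] in the KO Input. Eif1b, a paralogue of Eif1, was called in none of the comparisons.

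Of the eIF2 subunits, Eif2s1 (the alpha subunit, the substrate of the eIF2 kinases) had 8 (untreated) and 39 (LPS) reads in the WT Inputs, 21 and 20 in the KO Inputs, 41 and 92 in the WT RIPs, and 8 and 22 in the KO RIPs. It was called higher with LPS in the WT Input (1.12 [0.08 to 2.17]) and not in the KO Input (-0.25 [-1.11 to 0.62]), the untreated WT Input having the lowest level of the 4 with 8 reads. RIP over Input was 1.38 [0.34 to 2.42] (untreated) and 0.82 [0.29 to 1.36] (LPS) in the WT and 0.21 [-0.91 to 1.33] and 0.92 [0.06 to 1.77] in the KO, the latter not called on library totals. Its RIP ratios of WT over KO were 0.39 [-0.65 to 1.43] and 0.50 [-0.16 to 1.16]. Eif2s2, the beta subunit, had 21 (untreated) and 47 (LPS) reads in the WT Inputs, 30 and 43 in the KO Inputs, 39 and 59 in the WT RIPs, and 8 and 38 in the KO RIPs. The untreated KO RIP was low in it, and LPS raised that RIP by 1.22 [0.17 to 2.26], while the change in the WT RIP was 0.00 [-0.57 to 0.58]. The LPS-treated WT RIP was below the KO RIP by the log2 ratio -0.89 [-1.48 to -0.31], which had the opposite sign on library totals. The X-linked gamma subunit Eif2s3x had 130.2 (untreated) and 111 (LPS) RPM in the WT Inputs, 147 and 102 in the KO Inputs, 97.8 and 77.4 in the WT RIPs, and 152 and 83.8 in the KO RIPs. It was called lower in the untreated WT RIP than in the KO RIP (-0.65 [-1.04 to -0.25]), with the opposite sign on library totals, and lower with LPS in the KO RIP (-0.86 [-1.33 to -0.39]). It was also called lower with LPS in the KO Input (-0.53 [-0.83 to -0.22]), but not under the 3 other scalings. Eif2s3y, its homologue on the Y chromosome, had 2 reads in the LPS-treated WT Input, 0 in the other 3 Inputs and 4 to 9 in the RIPs.

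The genes of eIF2B, which reloads eIF2 with GTP, had few reads. Eif2b2 had 14 (untreated) and 47 (LPS) reads in the WT Inputs, 34 and 51 in the KO Inputs, 7 and 8 in the WT RIPs, and 2 and 11 in the KO RIPs. It was lower in the RIP than in the Input in all 4 pairs (-1.75 [-2.99 to -0.51] and -2.81 [-3.84 to -1.78] in the WT, -2.04 [-3.74 to -0.34] and -1.33 [-2.24 to -0.42] in the KO). Eif2b5 had 5 (untreated) and 10 (LPS) reads in the WT Inputs, 6 and 2 in the KO Inputs, 8 and 4 in the WT RIPs, and 6 and 14 in the KO RIPs. Its RIP was thus low in the WT and high in the KO after LPS, and the WT over KO ratio was -1.47 [-2.90 to -0.05] untreated and -3.10 [-4.56 to -1.64] with LPS. Eif2b1 had 3 to 13 reads in each library and was called in no comparison. Eif2d, which encodes a factor that can place tRNA on the small subunit, had 10 (untreated) and 12 (LPS) reads in the WT Inputs, 13 and 4 in the KO Inputs, 4 and 8 in the WT RIPs, and 12 and 4 in the KO RIPs. The untreated WT and KO RIPs lay on either side of their Inputs, with a WT over KO RIP ratio of -3.21 [-4.70 to -1.72], and with LPS the ratio was -0.67 [-2.25 to 0.91]. Eif2a, which encodes another protein able to deliver initiator tRNA, had 1 to 3 reads in each Input and 10 to 32 in the RIPs, and was called higher in all 4 RIPs over their Inputs (1.93 to 3.96).

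Of the 14 eIF3 genes, whose products form the largest initiation factor on the small subunit, 10 could be tested in the RIP over Input comparison of the untreated cells. Eif3a and Eif3f were called higher in the RIP in all 4 pairs on the 3′-UTR sums. On library totals the KO calls of Eif3f (0.67 untreated, 0.64 with LPS) and that of Eif3a with LPS (0.92) were lost. Eif3a, the largest subunit, had 14 (untreated) and 31 (LPS) reads in the WT Inputs, 34 and 12 in the KO Inputs, 107 and 75 in the WT RIPs, and 35 and 22 in the KO RIPs. In both genotypes its RIPs fell with LPS (-1.09 [-1.51 to -0.66] in the WT, -1.54 [-2.30 to -0.79] in the KO). Its Input fell with LPS in the KO (-1.61 [-2.53 to -0.69]), and the WT Input changed by 0.06 [-0.82 to 0.95]. Eif3f had 30 (untreated) and 30 (LPS) reads in the WT Inputs, 22 and 21 in the KO Inputs, 113 and 94 in the WT RIPs, and 21 and 31 in the KO RIPs. Its RIP over Input ratios ran from 1.04 (WT, untreated) to 1.44 (KO, untreated), and it was lower with LPS in the WT Input (-1.03 [-1.75 to -0.31]) but not called in the KO (-0.24 [-1.09 to 0.60]).

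The other eIF3 genes gave calls on few reads. In the untreated KO, Eif3d, Eif3j1, Eif3j2 and Eif3l were also called higher in the RIP than in the Input, and in the untreated WT none of these 4 was. On library totals the KO calls of Eif3d and Eif3j1 were lost. Eif3l had 2 (untreated) and 3 (LPS) reads in the WT Inputs, 3 and 2 in the KO Inputs, 12 and 6 in the WT RIPs, and 8 and 8 in the KO RIPs, and its WT over KO RIP ratio was -1.30 [-2.53 to -0.08] untreated and -1.88 [-3.30 to -0.45] with LPS, neither called on library totals. Eif3c was called lower in the LPS-treated WT RIP than in the KO RIP (-2.00 [-3.66 to -0.35], 4 and 6 reads; not called on library totals). Eif3i had 9 reads in the untreated and 1 in the LPS-treated WT RIP, a ratio of -2.90 [-5.09 to -0.71]. Eif3d had 20 and 14 reads there (-1.07 [-2.02 to -0.11], not called under the 3 other scalings), and it was not called between WT and KO RIPs (-0.90 [-1.95 to 0.15] untreated, -0.93 [-2.09 to 0.22] with LPS). Eif3b was lower in the WT RIP than in the Input (-1.26 [-2.50 to -0.01] and -1.90 [-3.24 to -0.55]), over a region shorter than a read. Of the pair with near-identical regions, Eif3j1 had 20 to 62 reads and Eif3j2 6 to 32 in each library, and after correction for the Inputs Eif3j1 was lower in the LPS-treated WT (-1.11 [-2.05 to -0.16]) and Eif3j2 in the untreated WT (-1.72 [-3.40 to -0.05]). Eif3e and Eif3h were called in no comparison.

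On the 3′-UTR sums the helicase genes Eif4a1 and Eif4a2 went in opposite directions. Eif4a1, the major eIF4A of the cap-binding complex, had 288 (untreated) and 266 (LPS) RPM in the WT Inputs, 305 and 275 in the KO Inputs, 191 and 194 in the WT RIPs, and 197 and 159 in the KO RIPs. Its Inputs lay above its RIPs, with ratios of -0.60 [-0.83 to -0.36] and -0.45 [-0.63 to -0.28] in the WT and -0.62 [-0.95 to -0.30] and -0.78 [-1.05 to -0.50] in the KO. The ratio of the LPS-treated WT was below the fold needed for a call and had the opposite sign on library totals. Its WT over KO RIP ratio was -0.05 [-0.39 to 0.28] untreated and 0.28 [0.01 to 0.55] with LPS, and the LPS ratios of its Inputs were -0.12 [-0.33 to 0.09] and -0.15 [-0.35 to 0.05]. Eif4a2, its close paralogue, had 49.5 (untreated) and 25.3 (LPS) RPM in the WT Inputs, 50.5 and 26.0 in the KO Inputs, 153 and 91.1 in the WT RIPs, and 227 and 107 in the KO RIPs. Here the RIPs lay above the Inputs in all 4 pairs (1.60 [1.15 to 2.05] and 1.82 [1.38 to 2.27] in the WT, 2.16 [1.72 to 2.60] and 2.02 [1.48 to 2.55] in the KO); on library totals the WT ratios (1.67 untreated, 2.34 with LPS) lay above those of the KO (1.39, 1.33), the reverse of the order on the 3′-UTR sums. An authors' peak stood over the region in all 4 RIPs. LPS lowered Eif4a2 in all 4 pairs of libraries, by log2 ratios of -0.97 [-1.55 to -0.39] and -0.95 [-1.51 to -0.38] in the WT and KO Inputs and -0.75 [-1.01 to -0.49] and -1.08 [-1.48 to -0.69] in the RIPs; the WT RIP call was lost on library totals and with TMM and median-of-ratios factors. Eif4a3, the helicase of the exon junction complex, had 4 to 34 reads in each library and was called higher in the untreated RIPs (1.84 [0.48 to 3.20] in the WT, 2.18 [0.57 to 3.79] in the KO, the latter not on library totals).

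Eif4b and Eif4h encode the cofactors that stimulate eIF4A. Eif4b had 522 (untreated) and 217 (LPS) RPM in the WT Inputs, 459 and 186 in the KO Inputs, 357 and 148 in the WT RIPs, and 597 and 174 in the KO RIPs. Untreated libraries lay above LPS-treated ones in every pair, and the LPS ratios were -1.27 [-1.46 to -1.08] and -1.30 [-1.51 to -1.10] in the WT and KO Inputs and -1.27 [-1.45 to -1.08] and -1.77 [-2.05 to -1.49] in the RIPs. This was the lowest LPS ratio of the WT Input among members with at least 20 reads. The fall in the RIPs was smaller in the WT than in the KO, by 0.50 [0.16 to 0.84]. Eif4h, at chr5:134619880-134621508, had the most reads of all members (785 (untreated) and 699 (LPS) RPM in the WT Inputs, 701 and 739 in the KO Inputs, 306 and 223 in the WT RIPs, and 646 and 570.3 in the KO RIPs). Its 4 Inputs were close together and its WT RIPs lay below its KO RIPs and all Inputs. RIP over Input was -1.36 [-1.52 to -1.20] and -1.64 [-1.79 to -1.50] in the WT and -0.11 [-0.30 to 0.07] and -0.37 [-0.53 to -0.22] in the KO, and the WT over KO RIP ratio was -1.08 [-1.29 to -0.88] untreated and -1.35 [-1.53 to -1.18] with LPS. On library totals these 2 ratios were -0.24 and -0.21, so that Eif4h was no longer called there, while all genes had medians of 0.75 and 1.10.

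The cap-binding protein gene Eif4e, predicted for CPE-dependent repression, had 93.6 (untreated) and 122 (LPS) RPM in the WT Inputs, 92.0 and 129.8 in the KO Inputs, 65.4 and 119.6 in the WT RIPs, and 49.2 and 94.1 in the KO RIPs. LPS-treated libraries lay above untreated ones in every pair. The LPS ratio was 0.37 [0.02 to 0.73] and 0.49 [0.17 to 0.82] in the WT and KO Inputs, below the fold needed, and 0.86 [0.55 to 1.18] and 0.89 [0.24 to 1.55] in the RIPs, where it was called. WT RIPs lay above KO RIPs by 0.36 [-0.27 to 1.001] and 0.33 [-0.02 to 0.68], neither of which was called on the 3′-UTR sums. On library totals every gene's ratio is higher by 0.84 and 1.14, and both pass. RIPs lay below Inputs in the untreated WT (-0.52 [-0.93 to -0.12]) and KO (-0.85 [-1.49 to -0.22]). Eif4e2, which encodes a cap-binding homologue that acts in repression, had 81.8 (untreated) and 85.9 (LPS) RPM in the WT Inputs, 87.5 and 72.6 in the KO Inputs, 23.4 and 34.1 in the WT RIPs, and 49.2 and 36.7 in the KO RIPs. It was lower in the RIP in all 4 pairs (-1.79 to -0.78), and the untreated WT RIP was below the KO RIP (-1.10 [-1.83 to -0.37]; -0.25 and not called on library totals). Eif4e3, the third homologue and one of the genes with a predicted activation, had 47.4 (untreated) and 32.7 (LPS) RPM in the WT Inputs, 57.3 and 37.9 in the KO Inputs, 92.4 and 49.0 in the WT RIPs, and 64.1 and 34.4 in the KO RIPs. Its WT RIPs were called above their Inputs (0.94 [0.46 to 1.42] and 0.57 [0.13 to 1.01]) and its KO RIPs were not (0.19 [-0.41 to 0.79] and -0.12 [-0.75 to 0.51]). The WT over KO RIP ratios of Eif4e3, 0.49 [-0.07 to 1.05] and 0.47 [-0.10 to 1.04], did not pass on the 3′-UTR sums, but both pass on library totals. LPS lowered Eif4e3 in the KO Input (-0.59 [-1.08 to -0.10]) and in both RIPs (-0.91 [-1.26 to -0.57] in the WT, -0.90 [-1.62 to -0.18] in the KO). The KO Input and KO RIP calls were lost under the 3 other scalings, and the WT RIP call on library totals (-0.40).

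The 3 scaffold genes differed from one another. Eif4g1, the main eIF4G, had 114 (untreated) and 98.0 (LPS) RPM in the WT Inputs, 127 and 91.2 in the KO Inputs, 66.6 and 50.6 in the WT RIPs, and 107 and 76.9 in the KO RIPs. It was lower in the WT RIPs than in their Inputs (-0.78 [-1.16 to -0.39] and -0.95 [-1.28 to -0.63]) and than in the KO RIPs (-0.70 [-1.18 to -0.22] and -0.61 [-1.04 to -0.19]), and both WT over KO ratios had the opposite sign on library totals. Eif4g2, a homologue that does not bind eIF4E, lies at chr7:111070568-111072691 and had 144 (untreated) and 254 (LPS) RPM in the WT Inputs, 149 and 274 in the KO Inputs, 245 and 464 in the WT RIPs, and 319 and 646 in the KO RIPs. LPS raised it in all 4 pairs of libraries, by 0.81 [0.53 to 1.08] and 0.87 [0.63 to 1.11] in the WT and KO Inputs and 0.92 [0.76 to 1.08] and 1.01 [0.75 to 1.27] in the RIPs. All 4 RIPs were above their Inputs (0.76 to 1.24; the untreated KO was not called on library totals), and the WT over KO RIP ratios were -0.39 [-0.66 to -0.12] and -0.48 [-0.62 to -0.33]. Neither of these WT over KO ratios passed the fold on the 3′-UTR sums, and both had the opposite sign on library totals. Eif4g3 had 11 (untreated) and 22 (LPS) reads in the WT Inputs, 25 and 10 in the KO Inputs, 77 and 78 in the WT RIPs, and 20 and 19 in the KO RIPs. Its RIP over Input ratios ran from 1.20 to 1.86 and were called in all 4 pairs (in the KO not on library totals), and LPS lowered it in the KO Input (-1.42 [-2.44 to -0.40]) with a change of -0.09 [-1.10 to 0.92] in the WT Input.

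Among the genes of eIF4E-binding proteins, Eif4ebp1 (4E-BP1) was higher with LPS in both Inputs and lower in the RIP than in the Input in all 4 pairs. It had 30 (untreated) and 156 (LPS) reads in the WT Inputs, 36 and 125 in the KO Inputs, 10 and 52 in the WT RIPs, and 3 and 19 in the KO RIPs. The LPS ratio was 1.31 [0.75 to 1.87] in the WT Input, 1.59 [1.06 to 2.12] in the KO Input and 1.69 [0.75 to 2.62] in the WT RIP. RIP over Input was -2.34 [-3.33 to -1.34] and -1.96 [-2.41 to -1.51] in the WT and -1.71 [-3.19 to -0.22] and -1.87 [-2.55 to -1.19] in the KO. Eif4ebp2 (4E-BP2) moved the other way in the Inputs. It had 326 (untreated) and 183 (LPS) RPM in the WT Inputs, 300.2 and 203 in the KO Inputs, 202 and 177 in the WT RIPs, and 160.4 and 118 in the KO RIPs. LPS lowered the WT Input (-0.83 [-1.05 to -0.61]) under all 4 scalings and the KO Input (-0.56 [-0.78 to -0.35]) on the 3′-UTR sums only, and the WT RIP had an LPS ratio of -0.19 [-0.39 to 0.01], not called. The WT over KO RIP ratio was 0.32 [-0.04 to 0.68] untreated and 0.57 [0.26 to 0.88] with LPS, and 0.72 [0.34 to 1.10] with LPS after correction for the Inputs. Eif4ebp3 had 2 to 8 reads in each library and was called lower in the untreated WT RIP than in its Input (-2.43 [-4.31 to -0.54]). Eif4enif1, which encodes the eIF4E transporter 4E-T, had 3 (untreated) and 8 (LPS) reads in the WT Inputs, 8 and 9 in the KO Inputs, 38 and 55 in the WT RIPs, and 7 and 12 in the KO RIPs. Its WT RIPs held most of its reads, and its WT RIP over Input ratios were 2.44 [0.96 to 3.93] and 2.24 [1.23 to 3.26], the highest among members with at least 20 reads. The KO ratios were 1.33 [-0.04 to 2.71] and 1.16 [-0.03 to 2.35], and the WT over KO RIP ratios 0.45 [-0.64 to 1.55] and 0.59 [-0.28 to 1.46]. These WT over KO ratios were not called on the 3′-UTR sums, but both pass on library totals.

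Of the late-acting factors, Eif5b, the GTPase of subunit joining, had 23 (untreated) and 29 (LPS) reads in the WT Inputs, 31 and 24 in the KO Inputs, 69 and 90 in the WT RIPs, and 25 and 34 in the KO RIPs. RIPs were above Inputs in all 4 pairs (0.70 to 1.27), but in the KO not called on library totals. The WT over KO RIP ratios were -0.40 [-1.05 to 0.25] and -0.14 [-0.70 to 0.42], and LPS changes were not called. Eif5a, whose hypusinated product acts on stalled ribosomes, had 482 (untreated) and 499.6 (LPS) RPM in the WT Inputs, 410.3 and 556 in the KO Inputs, 228 and 269 in the WT RIPs, and 284 and 366 in the KO RIPs. All 4 RIPs were below their Inputs (-1.08 [-1.28 to -0.89] and -0.89 [-1.03 to -0.75] in the WT, -0.52 [-0.79 to -0.25] and -0.60 [-0.79 to -0.42] in the KO), and neither Input was called with LPS (0.05 [-0.11 to 0.21] and 0.44 [0.28 to 0.59]). Its paralogue Eif5a2, with a predicted repression, had 13 (untreated) and 35 (LPS) reads in the WT Inputs, 38 and 35 in the KO Inputs, 95 and 93 in the WT RIPs, and 21 and 30 in the KO RIPs. It was above the Input in the WT RIPs (1.94 [1.13 to 2.74] and 0.99 [0.44 to 1.55]) and not called in the KO RIPs (0.68 [-0.08 to 1.43] and 0.57 [-0.12 to 1.26]). The corrected WT over KO ratio was 1.26 [0.15 to 2.36] untreated, where the WT Input held 13 reads, and 0.42 [-0.47 to 1.31] with LPS. Eif6, which keeps the large subunit from joining too early, had 39 (untreated) and 141 (LPS) reads in the WT Inputs, 42 and 105 in the KO Inputs, 10 and 32 in the WT RIPs, and 8 and 32 in the KO RIPs. LPS raised it in both Inputs (0.80 [0.29 to 1.30] in the WT, 1.12 [0.61 to 1.63] in the KO) and in the WT RIP (1.004 [0.02 to 1.99]). It was far below the Input in the WT RIPs (-2.71 [-3.67 to -1.74] and -2.50 [-3.05 to -1.95]) and less so in the KO RIPs (-0.75 [-1.79 to 0.28] and -0.90 [-1.46 to -0.33]), and the WT over KO RIP ratio was -1.54 [-2.81 to -0.27] and -1.52 [-2.21 to -0.82]. With the longest annotated region of Eif6 in place of the one with the most reads, the RIP over Input ratio was 0.33 in the untreated WT and 0.79 in the LPS-treated KO, and the LPS ratio of the KO Input was -0.56, all of opposite sign. On library totals the WT over KO RIP ratio was not called in either treatment.

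The remaining members at either end of a comparison, among those with at least 20 reads in it, had the following log2 ratios. For RIP over Input, Eif2a (2.202) and Eif3a (2.01) were near the top in the untreated WT and Eif4g3 (1.39) in the LPS-treated WT. In the untreated KO, Eif2d (1.397) and Eif3d (1.38) were high and Eif4ebp2 (-0.89) was low, and in the LPS-treated KO Eif4g3 (1.65) and Eif3f (1.33) were high and Eif4e2 (-0.95) was low, all of them called, and of these Eif2d, Eif3d, Eif4g3 and Eif3f lost their KO calls on library totals. Between the RIPs of WT and KO, Eif4b (-0.74, called; of opposite sign on library totals) and Eif3f (0.54, not called) stood at the ends in untreated cells and Eif2b1 (-1.03, not called) with LPS. After correction for the Inputs, the untreated cells gave -3.38 for Eif2d, -1.76 for Eif2b5 and -1.50 for Eif3b at the low end, and 1.23 for Eif1ad and 1.11 for Eif4enif1 at the high end. With LPS the low end held Eif2b5 (-4.64), Eif3c (-2.54), Eif2d (-1.71), Eif6 (-1.60) and Eif2b2 (-1.48), and the high end Eif4enif1 (1.08) and Eif4e3 (0.69). Most of these genes had few reads in at least 1 of the 4 libraries. Between the untreated Inputs, none of the other extremes was called: Eif2s1 had -0.78, Eif2b2 -0.71, Eif3a -0.71, Eif3b 0.51 and Eif6 0.41. Nor was any between the LPS-treated Inputs, where Eif2b2 had -0.45, Eif5a2 -0.34, Eif2s2 -0.21, Eif5 -0.17, Eif4a3 0.86, Eif4g3 0.73 and Eif3j1 0.66.

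With LPS, the WT Input had -0.79 [-1.95 to 0.37] for Eif2d and 0.65 [-0.19 to 1.48] for Eif2b2, neither called, and the KO Input 0.92 [-0.38 to 2.21] for Eif3j2, not called, and 0.54 [0.06 to 1.02] for Eif1a. In the WT RIP Eif2a was lower (-1.30 [-2.10 to -0.50]; not on library totals) and Eif1a higher (0.99 [0.70 to 1.27]). In the KO RIP Eif4g3 was lower (-0.97 [-1.85 to -0.08]; not under the 3 other scalings), and Eif4ebp1 (1.42 [-0.12 to 2.97]) and Eif6 (0.98 [-0.09 to 2.04]) were not called. The genotype difference of the LPS change in the Inputs had its other extremes at -1.21 for Eif4ebp3, -1.16 for Eif3j2, -0.46 for Eif3b, -0.39 for Eif5a, 1.33 for Eif4g3 and 0.88 for Eif2d. None of these was called. In the RIPs that difference was -1.21 [-2.41 to -0.02] for Eif2s2, 2.54 [0.37 to 4.71] for Eif2d and 0.96 [0.03 to 1.89] for Eif4e2. On library totals the LPS ratios shift by 0.52 in the WT RIP and 0.22 in the KO RIP, and the interval of Eif2s2 would include 0. Without a call the difference was -1.78 for Eif3i, -1.63 for Eif2b5, -1.51 for Eif2b2, -0.58 for Eif3l and 0.80 for Eif2b1. For the LPS change of the RIP beyond the Input, uncalled extremes in the WT were Eif3i (-1.87), Eif2b5 (-1.27), Eif4a3 (-1.10), Eif2b1 (1.26), Eif2d (1.06) and Eif5b (0.51). In the KO they were Eif3j2 (-1.31), Eif4a3 (-1.03), Eif1ax (-0.61), Eif2d (-0.61), Eif3d (-0.59), Eif2b2 (0.71), Eif1ad (0.49) and Eif4g3 (0.45).

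By prediction class, the 8 members with a prediction and enough reads had a higher median WT over KO RIP ratio than the 33 (untreated) or 34 (LPS) without one. The class was the authors' reading of the sequence and used no read counts. The median ratio was 0.33 with and -0.52 without a prediction in untreated cells, and 0.40 and -0.40 with LPS. Over all genes the 2 medians were 0.19 and -0.31 untreated, and 0.29 and -0.33 with LPS. The difference of 0.85 (untreated) and 0.80 (LPS) between the members' medians thus stood beside 0.50 and 0.62 over all genes, and no scaling moved it, since a scaling shifts both classes alike. On the 3′-UTR sums all 18 lower calls of members in these 2 comparisons were of genes without a prediction, and of the 3 higher calls, Eif1a had one. Over all genes, lower calls took 24.6% (untreated) and 30% (LPS) of those without a prediction and 8.17% and 8.66% of those with one. Higher calls took 7.84% and 10% without and 19% and 26.4% with one. With 8 members in the predicted class, few calls can fall there. On library totals 1 lower call was left in each treatment. Eif3j2 was the lowest of the 8 in both treatments (-0.56 [-1.53 to 0.41] and -0.56 [-1.403 to 0.29]). After correction for the Inputs the members' difference was 0.75 untreated and 0.81 with LPS, against 0.70 and 0.70 over all genes. For RIP over Input in the WT, the medians with and without a prediction were 0.64 and -0.11 untreated and 0.70 and -0.19 with LPS. In the KO they were 0.47 and 0.36 untreated and 0.59 and 0.20 with LPS. The WT differences were 0.74 and 0.88, smaller than the 1.07 and 1.22 over all genes. The KO differences were 0.11 and 0.39, against 0.41 and 0.48 over all genes. The authors' MACS peaks of RIP over Input covered 7 members in the untreated WT (13.7%, against 6.83% of all genes) and 16 in the LPS-treated WT (31.4%, against 15.4%), 2 in the untreated KO (3.92% against 1.03%) and 3 in the LPS-treated KO (5.88% against 1.17%). Of the 16, 5 had a prediction: Eif1a, Eif1ax, Eif2s1, Eif4e3 and Eif5b.

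**Figure D5:**
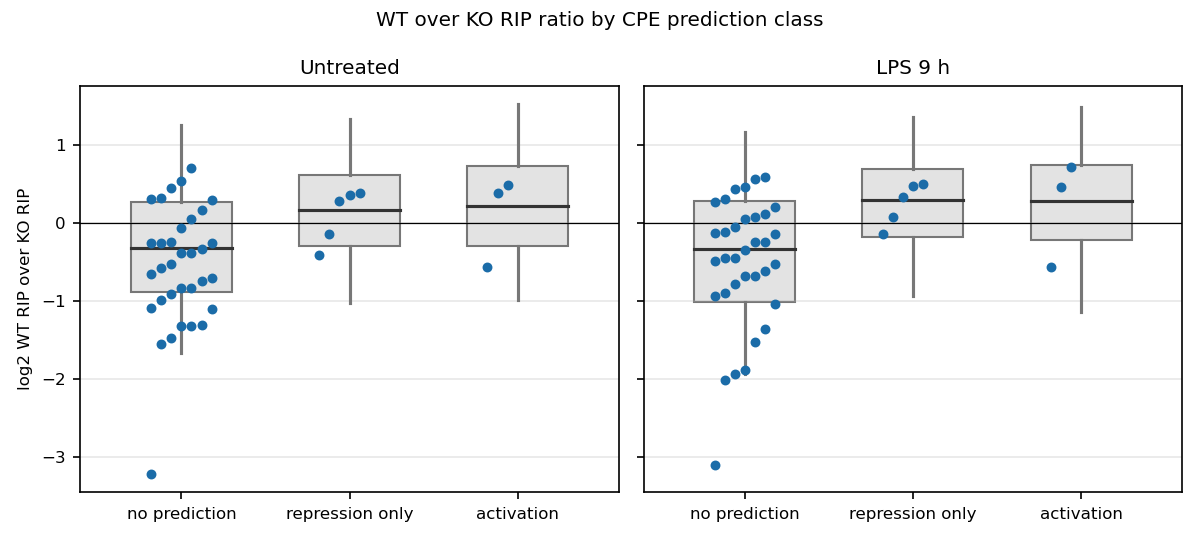
log2 ratio of WT RIP over KO RIP (y axis) by the authors' CPE prediction class (x axis), untreated (left) and LPS (right). Blue points are the members tested; grey boxes give the quartiles and median of all genes of the class and their lines the 5th to 95th percentiles. Members without a prediction reach furthest below 0, and 6 of the 8 with one lie above 0 with LPS.

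Other genes of translation were taken from 4 lists, counted on the 3′-UTR sums only. Over all genes, WT RIPs were called above KO RIPs for 12.3% (untreated) and 16.4% (LPS) and below them for 18.1% and 21.7%, shares that other scalings move as given for the members. Of 11 elongation and termination factors, 0 of 9 were called higher in the untreated WT RIP than in the KO RIP and 4 lower (Eef1a1, Eef1b2, Eef1g and Eef2), and with LPS 2 were higher (Abce1 and Eef1e1) and the same 4 lower of 8. Of 13 poly(A)-tail and small-subunit partners, 2 of 9 were higher untreated (Paip1 and Paip2, proteins that bind PABP) and none lower, and with LPS 2 of 10 were higher (Larp4 and Paip1) and 2 lower (Larp1 and Mcts1). Paip1 had a ratio of 1.30 [0.47 to 2.13] untreated and 1.17 [0.62 to 1.71] with LPS. Of the 9 partners tested, 6 were higher in the untreated WT RIP than in the Input (background 27.3%), and 6 of 9 in the untreated KO (background 20.8%, and 6.8% on library totals), Pabpc1 among them in both. Of 8 eIF2 kinase and phosphatase genes, 7 of which were tested, Eif2ak3 was higher in the untreated WT RIP and Ppp1cc in the LPS-treated one, with Eif2ak2 lower in both. Of 12 kinases and repressors that act on eIF4F, 3 of 11 tested were higher (Cyfip2, Mknk1 and Mknk2) and 1 lower (Rptor) untreated, and 4 of 12 higher (Fmr1, Mknk1, Mknk2 and Rps6kb1) and 1 lower (Rps6kb2) with LPS. With LPS in the Inputs, Larp1 and Denr were higher and Ddx3x and Paip2b lower in both genotypes, Etf1 was higher and Eef2k lower in both, Ppp1r15b (1.51 [1.30 to 1.71] in the WT, 1.3998 [1.23 to 1.57] in the KO) and Eif2ak2 (1.82 [1.30 to 2.34] and 1.15 [0.75 to 1.54]) were higher in both, and Cyfip1 was higher and Gigyf2, Mknk1, Mknk2, Pdcd4 and Rptor were lower in both. In the WT Input Eef1a1 and Eef2 were also lower, and in the KO Input Ppp1ca was also higher and Gigyf1 and Larp4 were also lower.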

How the data were processed

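RIP-seq reads (100 bp, single end; 8 libraries, each on 2 lanes) were mapped by the authors with Bowtie2 2.2.2 to mm10, duplicates were removed, and peaks were called with MACS 1.4.2. The deposited read counts are overlaps with Ensembl 3′-UTR regions, lanes summed. The deposited RPKM served only to recover library totals as an alternative scaling, and the deposited MACS score of a peak was used as present or absent. Region lengths, motif counts and predictions were also the authors'. Their columns of fold changes and adjusted p-values between libraries were not used. The 4 deposited tables share 8 count columns over 31117 rows, of which 495 without a symbol (0.902% to 1.04% of reads) were left out. Removing duplicates by position and counting regions that share reads can both lower or spread the counts of abundant genes.

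Counts were scaled to the sum over rows with a symbol, 1 read was added to each library, and log2 ratios with normal 95% counting intervals were computed over all genes with at least 10 reads in the libraries compared. A ratio was called past 0.5 with an interval on one side of 0. Such intervals cover counting error only, since reads without molecular identifiers are not independent molecules, and with 1 library per group no test between conditions was made. Named genes were 19 fixed members and the 5 highest and 5 lowest in each comparison. Members, gene lists and markers were chosen with earlier results of these data known. Alternatives were library totals, TMM and median-of-ratios factors, 0.1 reads added, minimums of 1 and 50 reads, a log2 threshold of 1, an assumed variation of 20%, a chi-square criterion and the longest region. The chi-square criterion took the limits of the first of the study's rules for a CPEB4-associated mRNA (Benjamini-Yekutieli adjusted p under 0.02, log2 fold over 0.5). It was computed on the 3′-UTR sums. The study's other rules and its fold on RPKM were not applied. Calculations used Python 3.11.15 (numpy 2.4.6, pandas 2.3.3, scipy 1.17.1, matplotlib 3.10.9), R 4.3.3 with edgeR 4.0.16 for scaling factors only, and blastn 2.17.0 for near-identical copies, and were tested on simulated data. Motif counts recomputed from GRCm38.p6 equalled the deposited ones in 14925 of 14925 regions.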

Additional observations from a re-analysis of the deposited data

Results flagged for a closer look

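For Eif2d in untreated cells, the RIP over Input ratio was called lower in the WT and higher in the KO. The log2 ratios were -1.98 in the WT (4 RIP and 10 Input reads) and 1.397 in the KO (12 and 13 reads), a difference of -3.38. For Eif2b5 with LPS they were -1.53 in the WT (4 and 10 reads) and 3.11 in the KO (14 and 2 reads), a difference of -4.64. Both rest on 1 library per group and few reads, and neither difference was tested across replicates.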

How the results depend on the processing

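No paired analysis was possible because there was 1 library per group, and no replicate could be left out for the same reason. Counts of members called that moved by over 1.5 times are given by setting, as higher or lower calls. The shares called over all genes move with the setting too. With at least 50 reads, higher calls were 6 for KO RIP over Input untreated, 7 for KO RIP over Input with LPS and 0 for WT over KO Input with LPS. With at least 50 reads, lower calls were 8 for WT RIP over Input untreated, 6 for WT over KO RIP untreated, 4 for WT over KO RIP with LPS, 4 for corrected RIP ratio untreated and 4 for corrected RIP ratio with LPS. With at least 50 reads, the median with a prediction minus that without one in the WT over KO RIP ratio with LPS was 0.59. With a log2 threshold of 1, higher calls were 8 for WT RIP over Input with LPS, 0 for WT over KO RIP untreated, 0 for WT over KO RIP with LPS, 0 for WT over KO Input untreated, 0 for WT over KO Input with LPS, 2 for LPS change in the WT Input, 2 for LPS change in the KO Input, 2 for LPS change in the WT RIP, 2 for LPS change in the KO RIP and 0 for corrected RIP ratio with LPS. With a log2 threshold of 1, lower calls were 9 for WT RIP over Input untreated, 8 for WT RIP over Input with LPS, 2 for KO RIP over Input untreated, 2 for KO RIP over Input with LPS, 6 for WT over KO RIP untreated, 0 for WT over KO Input untreated, 2 for LPS change in the WT Input, 4 for LPS change in the KO Input, 6 for LPS change in the WT RIP and 4 for LPS change in the KO RIP. With 20% variation assumed in each library, higher calls were 0 for WT over KO RIP untreated, 0 for WT over KO RIP with LPS, 0 for WT over KO Input untreated, 0 for WT over KO Input with LPS, 1 for LPS change in the WT Input, 1 for LPS change in the KO RIP, 0 for corrected RIP ratio untreated and 0 for corrected RIP ratio with LPS. With 20% variation assumed in each library, lower calls were 8 for WT RIP over Input untreated, 8 for WT RIP over Input with LPS, 3 for KO RIP over Input untreated, 2 for KO RIP over Input with LPS, 4 for WT over KO RIP untreated, 0 for WT over KO Input untreated, 2 for LPS change in the WT Input, 3 for LPS change in the KO Input, 5 for LPS change in the WT RIP, 4 for LPS change in the KO RIP, 3 for corrected RIP ratio untreated and 4 for corrected RIP ratio with LPS. By the chi-square criterion on the 3′-UTR sums, higher calls were 6 for KO RIP over Input untreated, 5 for KO RIP over Input with LPS, 0 for WT over KO RIP untreated, 0 for WT over KO Input untreated, 0 for WT over KO Input with LPS, 2 for LPS change in the WT Input and 1 for LPS change in the KO RIP. By the chi-square criterion on the 3′-UTR sums, lower calls were 9 for WT RIP over Input untreated, 3 for KO RIP over Input untreated, 4 for KO RIP over Input with LPS, 3 for WT over KO RIP untreated, 3 for WT over KO RIP with LPS, 0 for WT over KO Input untreated, 2 for LPS change in the WT Input, 4 for LPS change in the KO Input, 5 for LPS change in the WT RIP and 4 for LPS change in the KO RIP. On library totals, higher calls were 5 for KO RIP over Input untreated, 4 for KO RIP over Input with LPS, 17 for WT over KO RIP untreated, 27 for WT over KO RIP with LPS, 0 for WT over KO Input with LPS, 13 for LPS change in the WT RIP, 7 for LPS change in the KO RIP, 12 for corrected RIP ratio untreated and 21 for corrected RIP ratio with LPS. On library totals, lower calls were 6 for WT RIP over Input with LPS, 13 for KO RIP over Input untreated, 16 for KO RIP over Input with LPS, 1 for WT over KO RIP untreated, 1 for WT over KO RIP with LPS, 3 for LPS change in the WT RIP, 1 for corrected RIP ratio untreated and 1 for corrected RIP ratio with LPS. On library totals, log2 ratios of opposite sign were -0.064 for Eif1a (KO RIP over Input with LPS), 0.20 for Eif2s3x (WT over KO RIP untreated), 0.27 for Eif4a2 (WT over KO RIP untreated), 0.10 for Eif4b (WT over KO RIP untreated), 0.14 for Eif4g1 (WT over KO RIP untreated), 0.25 for Eif2s2 (WT over KO RIP with LPS), 0.53 for Eif4g1 (WT over KO RIP with LPS), 0.27 for Eif5a (corrected RIP ratio untreated) and 0.48 for Eif4g1 (corrected RIP ratio with LPS). With TMM factors, higher calls were 5 for WT over KO RIP untreated, 10 for WT over KO RIP with LPS, 11 for LPS change in the WT RIP, 7 for LPS change in the KO RIP and 8 for corrected RIP ratio with LPS. With TMM factors, lower calls were 8 for WT RIP over Input with LPS, 5 for WT over KO RIP untreated, 5 for LPS change in the WT RIP, 4 for corrected RIP ratio untreated and 3 for corrected RIP ratio with LPS. With median-of-ratios factors, higher calls were 2 for WT over KO RIP untreated, 5 for WT over KO RIP with LPS, 0 for WT over KO Input with LPS, 7 for LPS change in the KO RIP and 6 for corrected RIP ratio with LPS. With median-of-ratios factors, lower calls were 8 for WT RIP over Input with LPS, 5 for LPS change in the KO Input, 6 for LPS change in the WT RIP and 4 for corrected RIP ratio with LPS. With the longest region, log2 ratios of opposite sign were 0.33 for Eif6 (WT RIP over Input untreated), 0.79 for Eif6 (KO RIP over Input with LPS) and -0.56 for Eif6 (LPS change in the KO Input). The cause of these changes was not tested, except that a stricter minimum, threshold or interval can only remove calls. Adding 0.1 reads or testing from 1 read on moved no count by over 1.5 times. Of the ratios of single members, 218 of the 331 on library totals, 285 with TMM and 301 with median-of-ratios factors kept their direction and their call or lack of one. Counting depth limits the 19 genes with under 100 reads.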
